A study of Mus musculus with 6 samples.

Results

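Keratins are the intermediate filament proteins of epithelial cells, and the cornified envelope is the cross-linked protein shell of fully differentiated keratinocytes. The rows of the normalised expression table whose gene symbol was Krt followed by a digit, was Lor, Ivl, Flg, Krtdap, Dmkn, Sbsn or Calml3, or began with Sprr were taken, which gave 42 genes of 20162. They were divided into 5 keratins of the enamel organ (Krt5, Krt14, Krt15, Krt17 and Krt75), 29 other keratins and 8 genes of the cornified envelope. The other keratins were placed by their known site of expression as 12 suprabasal keratins of the oral mucosa or epidermis, 4 keratins of simple epithelium and 13 of the hair follicle or other sites. Ivl, the gene of the early envelope scaffold involucrin, had no row in that table, with raw counts of 1, 0 and 0 in WT against 0, 1 and 1 in the knockout, and is not among the 42. A further 36 genes with such names, Krt20 and the Sprr2 family among them, also had no row there, and none of them had more than 5 counts in any library.

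The libraries came from first molar tooth germs of C57BL/6 mice at postnatal day 7: 3 from wild-type animals (WT) and 3 from littermates lacking Gpr115 (genotype Gpr115-/-, here Gpr115-KO), an adhesion G protein-coupled receptor whose current gene symbol is Adgrf4. The series title places the study in enamel mineralisation by ameloblasts, the enamel-forming epithelial cells. Neither group received a treatment, and the labels do not say which part of the gene is missing or whether a library is 1 animal or a pool, so p-values measure only the spread between these libraries. A dissected molar holds enamel organ, dental pulp and odontoblasts, and may carry some of the surrounding oral tissue.

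Libraries held 8317302 to 11122821 counts, so that 1 count was worth 0.0907 to 0.114 CPM (read counts scaled to the library total with the trimmed mean of M-values, TMM). Adgrf4 stood at 67.1, 62.5 and 67.5 CPM in WT against at 39.2, 20.6 and 27.5 CPM in Gpr115-KO (log2 fold change −1.18 ± 0.21, standard error; adjusted p = 0.0887), below all WT libraries but above 0 in every knockout library; no member lies on chromosome 17, which carries it. The edgeR quasi-likelihood test with Benjamini-Hochberg adjustment over 16011 genes called 6 genes higher in Gpr115-KO (0.0375%) and 18 lower (0.112%) at an adjusted p under 0.05. Summed levels of the secretory ameloblast markers (6 of 6 found, Amelx, Ambn and Enam among them) were 106900 to 140000 CPM in WT against 91560 to 201800 CPM in Gpr115-KO, and those of the odontoblast and pulp markers (8 of 8) were 44860 to 94890 and 49190 to 83170 CPM, so the labelled tissue was present in all 6 libraries. The second Gpr115-KO library stood apart in skeletal muscle markers (11 of 11 found), at 295 CPM against 31.7 to 73.1 in the other five, and in the secretory ameloblast sum, where it was highest. It was lowest in the sum of the maturation ameloblast markers (6 of 7 names found), at 1937 CPM against 4993 to 8622 CPM. Most of that sum was Odam (1473 CPM), which with Adgrf4 was lowest there. Klk4, Amtn, Slc24a4 and Wdr72 were lowest in the third Gpr115-KO library instead. The third Gpr115-KO library was lowest in the secretory ameloblast sum, through Ambn and Enam, and in the sum of the general epithelial markers.

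A keratin filament is built from pairs of 1 type I and 1 type II keratin, and each layer of an epithelium uses its own pairs. Krt5 and Krt14 are the pair of basal cells, Krt4 and Krt13 that of the suprabasal layers of soft oral mucosa, Krt1 and Krt10 that of the suprabasal layers of keratinising epithelium, and Krt8 and Krt18 that of simple epithelium. The enamel organ is an epithelium that does not keratinise, whereas the oral mucosa above the molar is stratified and makes keratins and envelope proteins in its upper layers. The type I keratins lie together on chromosome 11 (15 members) and the type II keratins on chromosome 15 (18 members, with the type I gene Krt18 at the end of the cluster). The envelope genes lie in the epidermal differentiation complex on chromosome 3 (Lor, Flg, Sprr1a and Sprr3), in a cluster on chromosome 7 (Dmkn, Krtdap and Sbsn) and, for Calml3, on chromosome 13.

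Promoters of 5 envelope genes are shown here: Krtdap, Lor, Sprr1a and Sprr3, whose levels moved together across the libraries, and Dmkn, which departed from them. Those of Krt5 and Krt75, enamel organ keratins that did not move with them, stand beside; Flg and Sbsn were searched too and are not printed. RefSeq promoters (build GRCm38.p6) were at hand for 25 of the 42 members with a start within 100 bases of the annotated 5′ end. Each line gives the 150 bases before the start, 5′ to 3′ on the gene's strand, and capitals mark the AP-1 motif TGANTCA (N is any base; the motif reads the same on both strands) and the TATA motif TATAAA (both strands searched; the motifs do not overlap here).
Krtdap, chr7:30787755-30787904, plus strand: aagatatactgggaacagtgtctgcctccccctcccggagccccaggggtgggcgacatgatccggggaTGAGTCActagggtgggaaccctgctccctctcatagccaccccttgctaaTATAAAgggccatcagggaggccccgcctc
Lor, chr3:92083143-92083292, minus strand: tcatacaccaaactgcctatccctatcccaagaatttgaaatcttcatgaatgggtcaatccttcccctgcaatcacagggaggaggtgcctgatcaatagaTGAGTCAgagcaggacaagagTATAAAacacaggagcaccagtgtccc
Sprr1a, chr3:92485882-92486031, minus strand: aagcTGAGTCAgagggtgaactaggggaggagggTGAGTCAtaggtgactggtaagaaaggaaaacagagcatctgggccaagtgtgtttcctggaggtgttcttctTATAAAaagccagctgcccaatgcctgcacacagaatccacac
Sprr3, chr3:92458721-92458870, minus strand: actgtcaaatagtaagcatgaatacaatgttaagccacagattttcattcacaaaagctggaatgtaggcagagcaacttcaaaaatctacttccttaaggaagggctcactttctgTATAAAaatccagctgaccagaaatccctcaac
Dmkn, chr7:30763606-30763755, plus strand: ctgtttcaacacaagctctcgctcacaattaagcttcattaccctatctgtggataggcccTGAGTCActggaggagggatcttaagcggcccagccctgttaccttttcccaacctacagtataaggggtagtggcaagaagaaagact
Krt5, chr15:101712906-101713055, minus strand: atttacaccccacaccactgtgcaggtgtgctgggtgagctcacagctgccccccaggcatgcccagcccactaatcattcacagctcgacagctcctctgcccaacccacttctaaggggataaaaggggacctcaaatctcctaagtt
Krt75, chr15:101573905-101574054, minus strand: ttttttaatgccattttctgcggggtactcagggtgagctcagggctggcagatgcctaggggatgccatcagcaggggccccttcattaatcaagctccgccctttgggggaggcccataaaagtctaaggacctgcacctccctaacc

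Over the whole 300-base window (250 before and 50 after the start), TGANTCA was found in 6 of the 7 envelope promoters, against 1 of 16 promoters of other keratins (Krt13, 196 bases before the start) and 0 of 2 of the enamel organ keratins. Among all 32851 RefSeq promoters of this length, 7.81% held it. It began 81 bases before the start in Krtdap, 48 in Lor, 89 in Dmkn, and at 146 and 116 bases in Sprr1a, and it was absent from the window of Sprr3. TATAAA was found in 5 of the 7 envelope promoters, in 7 of 16 of the other keratins and in 0 of 2 of the enamel organ keratins, against 13.6% of all promoters. These matches describe letters only.

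The enamel organ keratins made up most of the keratin message of the tooth germ, and none was called different between genotypes. Per length (mean CPM per kilobase over all 6 libraries), Krt14 stood at 448, Krt17 at 326, Krt5 at 131.5, Krt15 at 59.7 and Krt75 at 1.65. The 5 genes together gave 92.6%, 96.8% and 93.7% of keratin CPM per kilobase in WT against 88.9%, 97.2% and 95% in Gpr115-KO.

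Krt14 measured 779, 725 and 799 CPM in WT against 858, 999 and 407 CPM in Gpr115-KO. The WT libraries were close together, while the knockout libraries spanned values on both sides of them, and the groups overlapped. Group means were 768 ± 38.3 and 754 ± 309 CPM (SD, n = 3 each), a log2 fold change of −0.02 ± 0.29 (standard error; adjusted p = 0.981). Krt5, its type II partner, measured 259, 226 and 276 CPM in WT against 301, 506 and 165 CPM in Gpr115-KO. The second knockout library was highest and the third lowest, so the groups overlapped here too, and the log2 fold change was 0.35 ± 0.34 (adjusted p = 0.718).

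Krt17, a type I keratin of epithelial appendages, measured 537, 516 and 556 CPM in WT against 566, 542 and 318 CPM in Gpr115-KO. The first and second knockout libraries lay at the WT level and the third below it (log2 fold change −0.17 ± 0.22, adjusted p = 0.794). Krt15, a type I keratin of basal and progenitor cells, measured 136, 93.2 and 115 CPM in WT against 161, 84.2 and 19.3 CPM in Gpr115-KO. It had the widest range of the 5, with the third knockout library 8.34-fold below the first, and its log2 fold change was −0.38 ± 0.73 (adjusted p = 0.871). Krt75, a type II keratin of the hair follicle companion layer that is also made in the enamel organ, measured 6.44, 4.66 and 6.5 CPM in WT against 4.90, 6.20 and 3.66 CPM in Gpr115-KO. Its groups overlapped (log2 fold change −0.26 ± 0.29, adjusted p = 0.760).

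**Figure D1:**
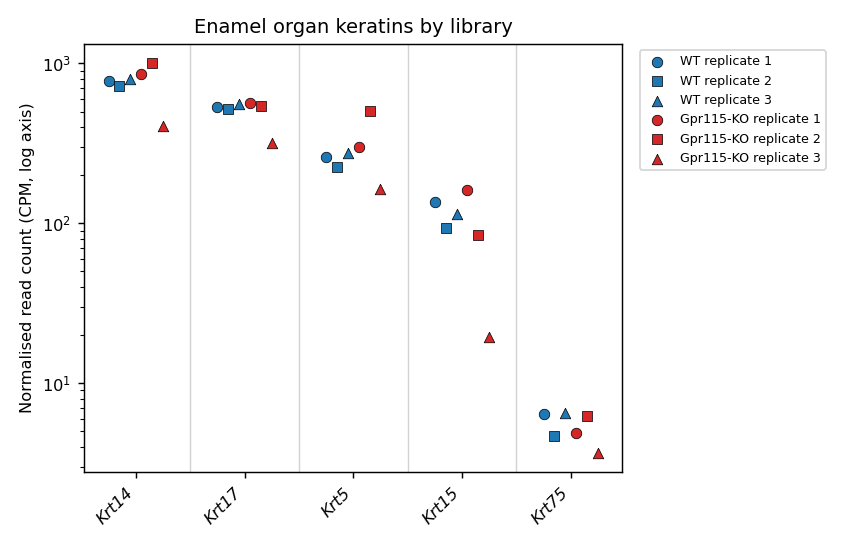
Normalised read counts (CPM, log axis) of the 5 enamel organ keratins; each point is 1 library, blue for WT and red for Gpr115-KO, with the replicate number given by the symbol. The third Gpr115-KO library is the lowest point for every gene, most of all for Krt15 (19.3 CPM), while the WT libraries lie close together.

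All 5 enamel organ keratins were lowest in the third Gpr115-KO library, in which their sum was 912 CPM against 1565 to 2138 CPM in the other five. The sum of general epithelial markers (8 of 8 found, none at 0) was also lowest there, at 168 CPM against 209 to 247 CPM. By genotype that sum did not overlap, at 225 to 247 CPM in WT against 168 to 222 CPM in Gpr115-KO. Cdh1, Cdh3, Esrp1, Rab25 and Ap1m2 were lowest in the third Gpr115-KO library, whereas Epcam and St14 were highest (17.9 and 21.2 CPM). Cdh1 was also below all WT libraries in every knockout library, at 112.5, 105.5 and 89.9 against 75.2, 72.2 and 52.6 CPM. Its log2 fold change was −0.62 ± 0.18 (adjusted p = 0.245), and the other tested markers overlapped. Of all genes tested, 8.99% lay wholly lower in Gpr115-KO. The secretory ameloblast sum was lowest in the third Gpr115-KO library too, through Ambn and Enam (53960 and 7911 CPM). Fam83h was highest there (9.88 CPM), and Amelx, Mmp20 and Sp6 were exceeded only in the second Gpr115-KO library. The part of these cell types in the keratin values was not tested, and in bulk tissue fewer cells of a type and less RNA per cell cannot be told apart. Without that library the median log2 fold change of the 5 genes went from −0.17 to 0.09, and that of Krt5, the smallest p among members in that fit, was 0.67 (adjusted p = 0.284).

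Ratios within a library leave the total epithelium aside. Krt5 per unit of Krt14 (both per kilobase) was 0.257, 0.241 and 0.267 in WT against 0.271, 0.392 and 0.313 in Gpr115-KO. All 3 knockout libraries lay above all 3 WT libraries, by 1.63-fold between the extremes but only 0.271 against 0.267 between the nearest. In the other keratin pairs examined the groups overlapped. An exact permutation test over 3 against 3 libraries cannot go below p = 0.10, and the Krt5 to Krt14 ratio was not tested. Krt17 per unit of Krt14 spanned 1.44-fold with overlapping groups. Krt15 per unit of Krt14 was 0.175, 0.128 and 0.144 in WT against 0.187, 0.0842 and 0.0474 in Gpr115-KO, a range of 3.96-fold, so in the third knockout library Krt15 was low beyond the low level of Krt14. The sum of type II keratins per unit of the sum of type I keratins (17 and 15 genes, per kilobase) was 0.177, 0.144 and 0.176 in WT against 0.217, 0.250 and 0.186 in Gpr115-KO, without overlap. It is not a separate observation, since Krt5 and Krt14 enter both ratios. Krt5 gave 102.9 of 119.5 type II CPM per kilobase in the second WT library and 230.5 of 250.9 in the second Gpr115-KO library. The ratio of sums moves with the oral keratins too: Krt4 gave 53.1 of 221 type II CPM per kilobase in the first Gpr115-KO library against 15.8 of 163 in the third WT library.

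Of the 12 suprabasal oral keratins, 8 had enough counts to be tested, and 0 of 8 were called. They followed another order: 6 of these 8 were highest in the first and the third WT libraries and the first Gpr115-KO library, and low in the second WT library and the second and the third Gpr115-KO libraries. Of these, Krt1, Krt16 and Krt78 passed the count filter through the high libraries only. Krt4 measured 47.5, 2.16 and 33.7 CPM in WT against 113, 2.99 and 3.57 CPM in Gpr115-KO. Each genotype thus held low and high libraries, with a 52.5-fold span over all 6, and the log2 fold change of 0.51 had a standard error of 1.77 (adjusted p = 0.936). Krt13, its type I partner, measured 25.3, 1.25 and 19.6 CPM in WT against 43.0, 2.14 and 1.46 CPM in Gpr115-KO, a 34.4-fold span in nearly the same order (log2 fold change −0.01 ± 1.63, adjusted p = 0.998). Within a library the Krt4 to Krt13 ratio per kilobase stayed between 1.09 and 2.05, a 1.89-fold span that was far narrower than that of either gene. By contrast, Krt4 per unit of Krt5 spanned 63.7-fold.

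Krt6a, a type II keratin of oral mucosa and hair follicle that is induced on wounding, measured 13.7, 7.16 and 12.5 CPM in WT against 21.3, 9.30 and 5.03 CPM in Gpr115-KO (log2 fold change 0.08 ± 0.48, adjusted p = 0.960). The same 3 libraries were highest as for Krt4, with a much smaller span. Its reads could be shared with Krt6b, which is 97.0% identical over 1193 bases. They could also be mixed with those of the antisense gene Gm49428, whose span overlaps that of Krt6a over 1633 bases, introns included. Krt10 departed from the order, with 12.4, 14.9 and 12.8 CPM in WT against 18.0, 14.4 and 11.9 CPM in Gpr115-KO, a 1.51-fold span (log2 fold change 0.14 ± 0.21, adjusted p = 0.827). It too was highest in the first Gpr115-KO library and lowest in the third, but the second WT and the second Gpr115-KO libraries came next after the highest. Krt1, the type II partner of Krt10 in keratinising epithelium, measured 3.08, 0.114 and 1.12 CPM in WT against 2.39, 0.214 and 0.183 CPM in Gpr115-KO. Krt1 was thus at 1 or 2 counts in the libraries where Krt4 was low, while Krt10 held its level there; Krt10 overlaps the antisense gene Gm11940, and the libraries do not mark strand. Krt78, of suprabasal keratinocytes, measured 6.17, 0.568 and 2.44 CPM in WT against 13.8, 0.107 and 0.640 CPM in Gpr115-KO. The 0.107 CPM in the second knockout library was 1 count, so the 129-fold span has a 95% counting interval of 22.7 to 5137. Krt16 and Krt76 also peaked in the first Gpr115-KO library, at 3.99 and 2.73 CPM, and were lowest in the second WT library (0.114 CPM) and the third Gpr115-KO library (0.0915 CPM). Krt16 could share reads with Gm11597, which is 97.3% identical over 880 bases. Krt76 departed from the order, since the second Gpr115-KO library (1.18 CPM) exceeded the third WT library (0.813 CPM).

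The envelope genes shared this order. Of the 8 members, 6 were tested and 0 were called. Krtdap, a secreted protein of differentiating keratinocytes, measured 14.1, 0.341 and 20.2 CPM in WT against 43.8, 2.14 and 0.640 CPM in Gpr115-KO. The 128-fold span between the first knockout and the second WT library rests on 3 counts in the latter (95% counting interval 43.6 to 625), and the log2 fold change was 0.40 ± 1.80 (adjusted p = 0.95). Calml3, a calmodulin-like protein of stratified epithelium, measured 3.63, 0.455 and 2.13 CPM in WT against 7.98, 0.321 and 0.732 CPM in Gpr115-KO (log2 fold change 0.49 ± 1.17, adjusted p = 0.9). Sprr3 and Sprr1a, small proline-rich proteins that transglutaminases cross-link into the envelope, behaved alike: Sprr3 measured 6.71, 0.455 and 3.76 CPM in WT against 11.2, 0.107 and 0.457 CPM in Gpr115-KO. Sprr1a measured 3.45, 0.114 and 2.64 CPM in WT against 8.32, 0.534 and 0.366 CPM in Gpr115-KO. Both were highest in the first knockout library and near 1 to 5 counts in the 3 low libraries.

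Dmkn, the secreted protein dermokine, departed from the order, with 32.8, 16.7 and 26.6 CPM in WT against 46.8, 13.6 and 33.3 CPM in Gpr115-KO. The third knockout library was the second highest here, and it spanned only 3.45-fold (log2 fold change 0.29 ± 0.43, adjusted p = 0.827). Sbsn, suprabasin, measured 6.26, 1.93 and 2.54 CPM in WT against 7.07, 1.5 and 2.10 CPM in Gpr115-KO (log2 fold change −0.04 ± 0.62, adjusted p = 0.987); Tmem147os overlaps it on the same strand, so its reads may be split. Loricrin, the main protein of the mature envelope, was under the count filter with 11, 1 and 14 counts in WT against 42, 4 and 3 in Gpr115-KO. Filaggrin, which bundles keratin filaments, had 3, 0 and 5 counts in WT against 8, 0 and 0 in Gpr115-KO. The same 3 libraries were thus highest for these 2 untested genes.

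**Figure D2:**
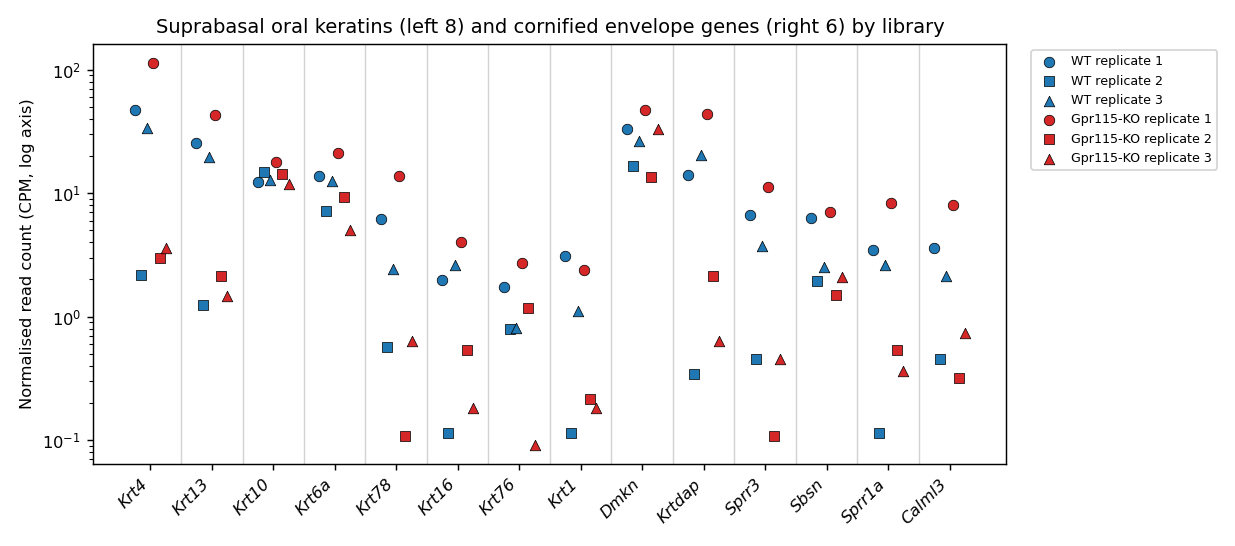
Normalised read counts (CPM, log axis) of the 8 tested suprabasal oral keratins and the 6 tested cornified envelope genes; each point is 1 library, blue for WT and red for Gpr115-KO, with the replicate number given by the symbol. For most genes the second WT library lies with the second and the third Gpr115-KO libraries, while Krt10 and Dmkn span little (1.51-fold and 3.45-fold).

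The spread of each gene over the 6 libraries was taken as its highest over its lowest library, with a lowest library under 3 counts set to 3 counts. It reached 10-fold in 10 of the 28 tested members (35.7%), against 222 of all 16011 genes tested (1.39%) and 207 of the 12113 genes with a mean of 1 to 40 CPM (1.71%). By role, this was 5 of 8 suprabasal oral keratins (median span 12.9-fold), 4 of 6 envelope genes (24.6-fold) and 1 of 5 hair follicle and other keratins, but 0 of 5 enamel organ keratins (2.45-fold) and 0 of 4 simple epithelium keratins. The median over all genes tested was 1.85-fold. The first and the third WT libraries and the first Gpr115-KO library were the 3 highest in 15 of the 28 (53.6%): 6 of 8 suprabasal keratins, 5 of 6 envelope genes, 3 of 5 hair follicle and other keratins and 1 of 5 enamel organ keratins (Krt15), and in 802 of all genes tested (5.01%). Krt1, Krt16, Krt23, Krt78, Calml3, Sprr1a and Sprr3 reached 10 counts in those 3 libraries only. They passed the count filter through the order itself, so the shares of members are no test of it. Krt73 entered the 15 with 17 counts each in the first Gpr115-KO and the second WT library. The order was noticed in the data, and it is given as a description.

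**Figure D3:**
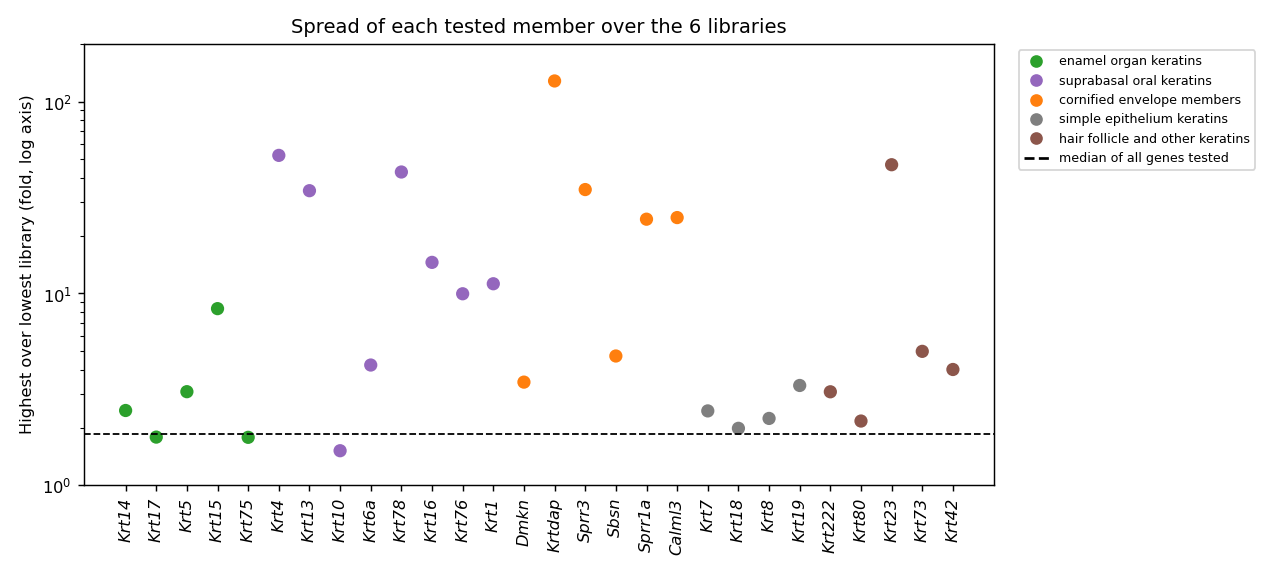
Highest over lowest library (fold, log axis) of each of the 28 tested members, coloured by role, with the median of all genes tested (1.85-fold) as a dashed line. Suprabasal oral keratins and envelope genes reach 128-fold (Krtdap), whereas the enamel organ keratins lie between 1.78-fold and 8.34-fold.

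The simple epithelium keratins followed neither order closely, and 0 of 4 were called. Krt7, a type II keratin of ducts and simple epithelia, measured 23.0, 28.6 and 29.9 CPM in WT against 33.3, 32.9 and 13.6 CPM in Gpr115-KO. Like the enamel organ keratins it was lowest in the third knockout library (log2 fold change −0.03 ± 0.30, adjusted p = 0.974). Krt18 was highest in that library, with 9.70, 5.80 and 7.22 CPM in WT against 7.52, 5.77 and 11.4 CPM in Gpr115-KO (log2 fold change 0.12 ± 0.30, adjusted p = 0.903). Krt8, its partner, ranged from 1.63 to 3.63 CPM and may share reads with the pseudogene Krt8-ps, and Krt19 ranged from 0.549 to 1.82 CPM. The span of Krt7 overlaps that of the antisense gene Gm671, whose reads could be mixed with its own where exons overlap.

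Among the hair follicle and other keratins, 5 of 13 were tested and 0 were called. Krt73, a type II keratin of the inner root sheath, was the only member with an unadjusted p under 0.05. It measured 2.54, 1.93 and 4.27 CPM in WT against 1.94, 0.855 and 1.19 CPM in Gpr115-KO. The first knockout library lay just above the second WT library, so the groups touched (log2 fold change −1.14 ± 0.46, adjusted p = 0.356). Krt42 measured 3.08, 1.14 and 3.86 CPM in WT against 1.94, 0.962 and 1.01 CPM in Gpr115-KO (log2 fold change −1.06 ± 0.52, adjusted p = 0.436). Krt23 kept the order of the suprabasal keratins, with 5.08, 0.455 and 5.08 CPM in WT against 12.9, 0.534 and 0.0915 CPM in Gpr115-KO, the last being 1 count. Krt222 (6.31 to 19.4 CPM; log2 fold change 0.01 ± 0.35, adjusted p = 0.992) and Krt80, which is found in many differentiating epithelia (3.64 to 7.86 CPM; 0.24 ± 0.31, adjusted p = 0.799), had overlapping groups. The antisense gene Gm35853 overlaps the whole span of Krt80, introns included (22719 bases). Its reads could be mixed with those of Krt80 where exons overlap, which was not computed. The other 8, hair shaft and root sheath keratins such as Krt25, Krt35 and Krt71 and the pseudogene Krt8-ps, were under the filter with at most 20 counts in a library. Hair follicle markers outside the keratins (10 of 10 found, Krtap3-1 at 0) summed to 12.7 to 20.3 CPM in WT against 18.4 to 22.9 CPM in Gpr115-KO, most of it Tchh.

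Across all 28 tested members, 0 were called higher and 0 lower by edgeR, and 1 had an unadjusted p under 0.05. Of all 16011 genes tested, 24 were called and 1975 had an unadjusted p under 0.05. Limma-voom and limma-trend also called 0, as did DESeq2, which gave an adjusted p for only 18 members. Libraries of one genotype lay wholly above those of the other in 0 of 28 members, against 8.55% of all genes tested with Gpr115-KO higher and 8.99% with it lower. The median log2 fold change was 0.07 over all tested members (16 above 0 and 12 below), −0.17 over the enamel organ keratins (1 and 4), 0.08 over the 17 other keratins (10 and 7) and 0.35 over the envelope genes (5 and 1), beside 0.01 over all genes tested. The first Gpr115-KO library carried the last of these values: without it the median was −2.08 for the envelope genes and −0.86 for the other keratins. In that edgeR fit 7 of 31 members had an unadjusted p under 0.05, and the share over all genes was not taken. Of the members, 0 were called (smallest adjusted p 0.223, for Sprr3), beside 9 genes higher and 39 lower over the whole table. These wide standard errors leave large differences in the suprabasal and envelope genes undetectable with 3 libraries a group. Krt19 and Krt76 passed the count filter most narrowly, at 69 and 70 counts over the 6 libraries, and Lor and Krt24, with 75 and 53, missed it most narrowly, since fewer than 3 of their libraries reached its level.

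**Figure D4:**
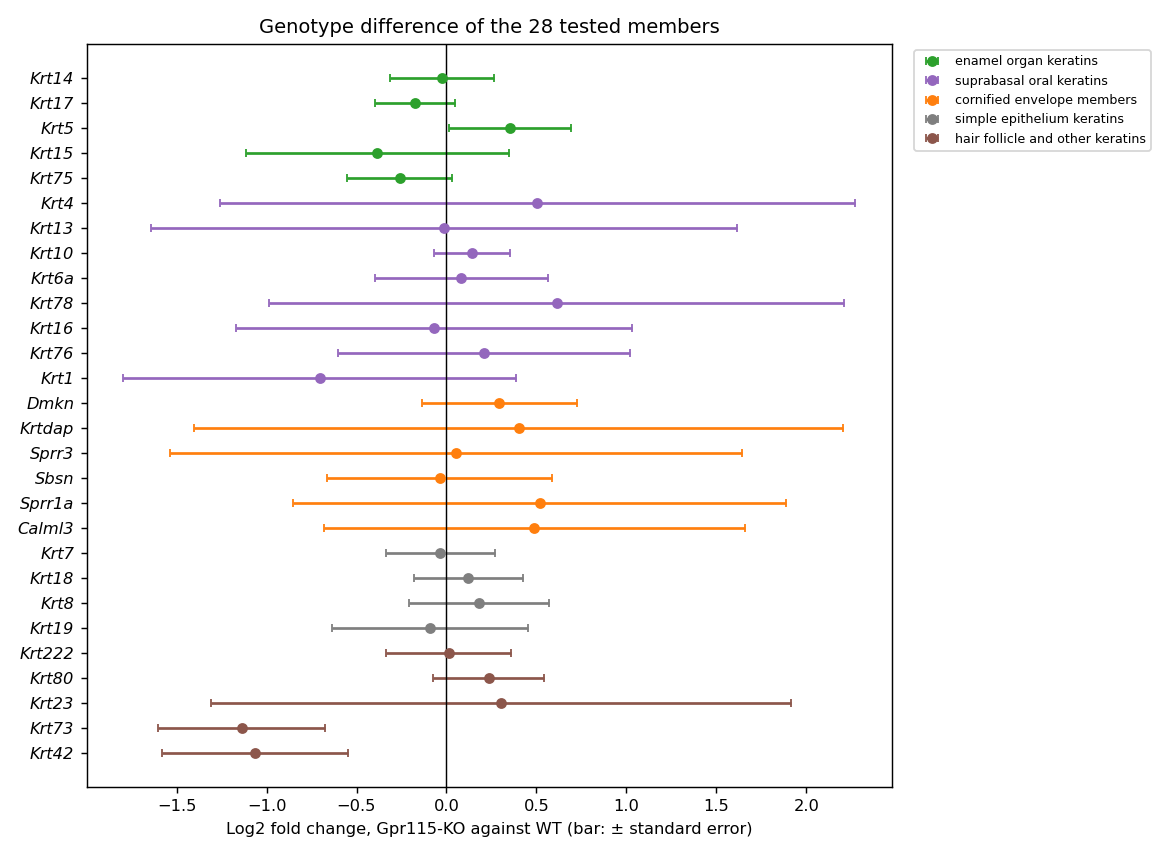
Log2 fold change of Gpr115-KO against WT for each of the 28 tested members, with bars of 1 standard error, coloured by role. Points lie between −1.14 (Krt73) and 0.61 (Krt78), and the bars are widest for suprabasal oral keratins and envelope genes.

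Genes that work with these proteins were read from 3 lists. Of the keratin partners, the plaque and linker proteins that tie keratin filaments to desmosomes and hemidesmosomes, 18 of 20 were tested, 0 were called in either direction, and 9 had a log2 fold change above 0 and 9 below (median −0.03). The first and the third WT libraries and the first Gpr115-KO library were the 3 highest in 6 of the 18. Plec, the linker of keratins to hemidesmosomes, measured 892, 752 and 738 CPM in WT against 533, 486 and 506 CPM in Gpr115-KO. All 3 knockout libraries lay below all WT libraries, and the log2 fold change of −0.64 ± 0.17 did not pass the threshold (adjusted p = 0.223). Col17a1, the hemidesmosomal collagen, stood at 0.41 ± 0.17 on the log2 scale (adjusted p = 0.366).

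Of the genes of envelope assembly, which are transglutaminases, proteases and their inhibitors, lipid enzymes and late envelope proteins outside the 42, 21 of 30 were tested and 0 were called (15 above 0 and 6 below, median 0.47). In 16 of these 21 the first and the third WT libraries and the first Gpr115-KO library were highest, and 12 spanned at least 10-fold. Some of the 16, such as Hrnr and Sdr9c7, reached 10 counts in those libraries only. Ly6d, a surface protein of stratified epithelium, measured 30.5, 0.341 and 23.4 CPM in WT against 50.7, 4.60 and 0.366 CPM in Gpr115-KO. Spink5, the protease inhibitor of the upper layers, measured 11.9, 0.909 and 8.23 CPM in WT against 30.7, 0.962 and 0.549 CPM in Gpr115-KO. Both were highest in the same 3 libraries as Krt4 and Krtdap. Cst6 (log2 fold change 0.53 ± 0.28, adjusted p = 0.475) and Tgm1, the main cross-linking enzyme of keratinocytes (0.47 ± 0.30, adjusted p = 0.561), had the smallest p in the list. Tgm1 did not share the order, at 4.26, 4.55 and 5.59 CPM in WT against 4.33, 8.12 and 7.41 CPM in Gpr115-KO.

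Of the transcription factors of epithelial differentiation, 12 of 15 were tested and 0 were called (3 above 0 and 9 below, median −0.12). In 7 of these 12 the 3 highest libraries were again those of Krt4 and Krtdap. Trp63, the master factor of stratified epithelium, measured 206, 181 and 172 CPM in WT against 182, 180 and 129 CPM in Gpr115-KO, and was not among those 7. Grhl1 (−0.99 ± 0.70, adjusted p = 0.596) and Ovol1 (−0.70 ± 0.53, adjusted p = 0.620) had the smallest p, and both were highest in the first and the third WT libraries and the first Gpr115-KO library.

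In sum over each library, the suprabasal oral keratins stood at 114, 28.1 and 88.5 CPM in WT against 223, 32.9 and 24.8 CPM in Gpr115-KO, and the envelope members at 68.2, 20.1 and 59.9 and at 131, 18.6 and 37.9 CPM. The envelope assembly genes summed to 447, 328 and 497 CPM in WT against 679, 440 and 259 CPM in Gpr115-KO. This sum followed the order less closely, since the second Gpr115-KO library stood near the first WT library. Sfn, Cst6 and Serpinb5, which did not share the order, gave 196, 145.5 and 61.9 of its 440 CPM. General epithelial markers summed to 238, 247 and 225 CPM in WT against 222, 209 and 168 CPM in Gpr115-KO. The first and the third WT libraries and the first Gpr115-KO library were the 3 highest in 0 of their 7 tested genes. Their sum was highest by a small margin in the second WT library, in which Krt4 and Krtdap were low. Of the tested genes only Cdh3 was highest there. Salivary gland markers (7 of 8 found, Dcpp1 at 0, most of the sum from Prom2) were 35.8 to 44.0 CPM in WT against 29.2 to 57.4 CPM in Gpr115-KO. How much oral mucosa each dissected molar carried is not given in the labels, and its part in these values was not tested.

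**Figure D5:**
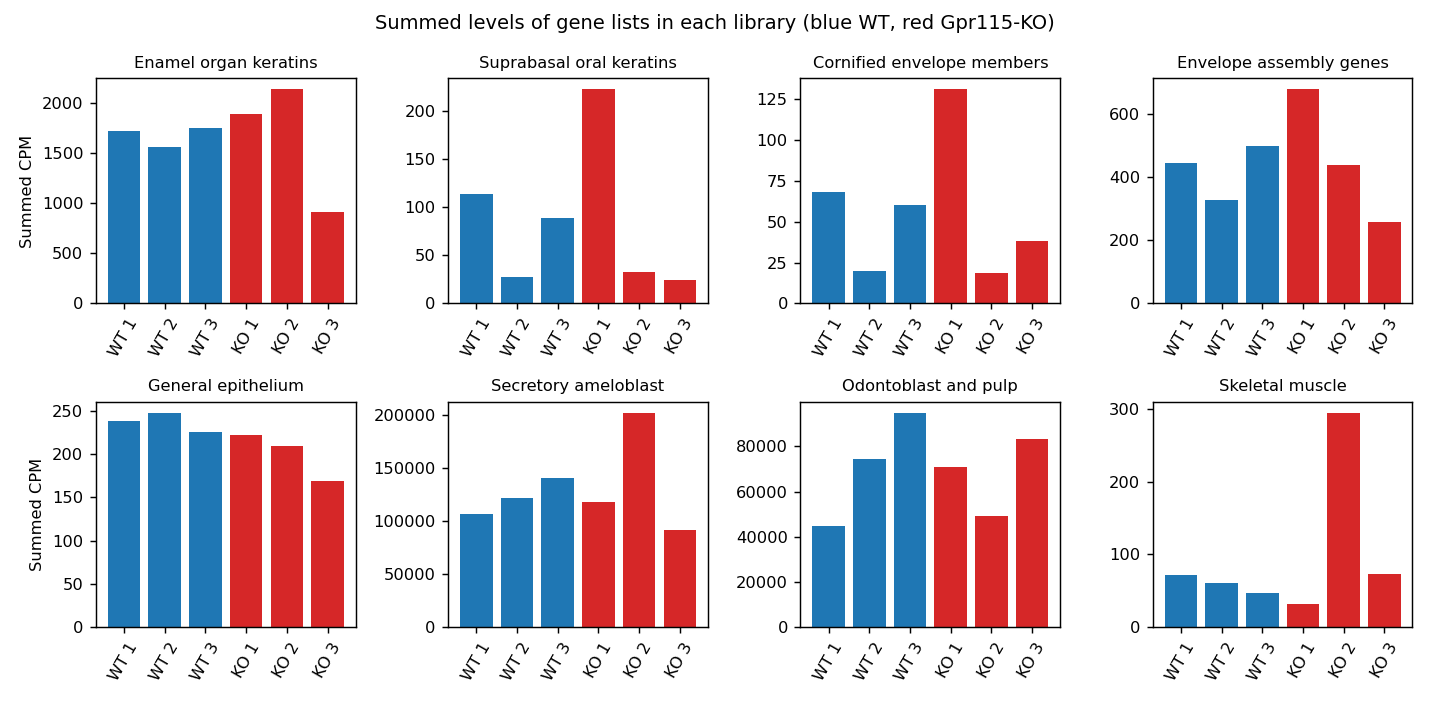
Summed CPM of 8 gene lists in each library, with bars from 0, blue for WT and red for Gpr115-KO. The suprabasal keratins and envelope members peak in the first Gpr115-KO library (223 and 131 CPM), the enamel organ keratins are lowest in the third (912 CPM), and skeletal muscle markers peak in the second (295 CPM).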

How the data were processed

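The authors deposited raw read counts per gene and a second table of the same libraries that holds, per gene, a normalised signal on the CPM scale after TMM scaling. Per the submitters' processing notes, STAR 2.5.2a, edgeR, DESeq2 and limma and the build GRCm38 (mm10) were used; for the counting tool and the annotation release, nothing is given in the sources used here. Per the labels' protocols, total RNA was taken with TRIzol and sequenced in pairs from Nextera XT libraries, which do not mark strand. The normalised values are whole multiples of 1 read (100% within 0.01 reads), and edgeR on the reads recovered from them called 6 genes higher and 18 lower.

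Counts were tested with edgeR 4.0.16 (robust quasi-likelihood, R 4.3.3, TMM) over genes kept by filterByExpr (minimum count 10, minimum total 15), 16011 of 48709, with a biological coefficient of variation of 23.1%; DESeq2 1.42.0 and limma 3.58.1 (pseudocount 1 for limma-trend) were alternatives. The 15 transgene rows, with at most 8 counts in a library, were left out. The script was tested on simulated counts. Fold changes are Gpr115-KO over WT. CPM per kilobase uses the longest coding transcript (GENCODE, GRCm38), and near copies share at least 95% identity over 150 bases. Counting intervals (95%) and the floor of 3 counts cover counting error only.

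The members and lists were chosen with earlier results of these data known. Named were the 5 enamel organ keratins and the listed envelope genes, other members with a mean of at least 5 CPM, the 2 smallest p in each list and the members nearest the filter; Krt1, Krt8, Krt16, Krt78, Krt23, Sprr3, Sprr1a, Ly6d, Spink5, Trp63 and members named under the filter were chosen after their values were seen.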

Additional observations from a re-analysis of the deposited data

How the results depend on the processing

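No member was called in either direction under any of the 16 other settings. The setting on reads recovered from the normalised values repeats the main fit, since those reads equal the raw counts. DESeq2 gave an adjusted p for only 18 members, and a filter of at least 10 counts in every library kept only 16. The remaining members could not be called in those settings. The genes called over the whole table numbered 135 higher and 365 lower without a count filter, 59 and 184 with DESeq2, and 11 lower with library totals alone. With the replicate number as a block (replicate block) they numbered 18 higher and 54 lower, members 0; the correlations of same-numbered libraries (0.28, 0.0286 and −0.064) do not pair them. Leaving out each library in turn gave 5 to 10 higher and 7 to 39 lower, the 39 without the first Gpr115-KO library. Under the same omissions the median log2 fold change ran from −0.86 to 0.29 for other keratins and from −2.08 to 0.78 for envelope members, both lowest without the first Gpr115-KO library; the cause was not tested.

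Of 297 alternative values for the 19 named and tested members, 246 kept their direction and 51, in 16 members, changed sign. The 246 include the values from recovered reads and from edgeR without robust shrinkage. Their fold changes equal those of the main fit and could not change sign. Those of the replicate block, limma-voom and limma-trend were, in that order, −0.042, −0.43 and −0.017 for Calml3, −0.14, −0.55 and −0.30 for Krtdap, −0.10, −0.13 and −0.12 for Krt222, −0.41, −0.69 and −0.46 for Krt4, and −0.064, −0.17 and −0.080 for Krt6a. With library totals alone they were 0.055 for Sbsn, 0.042 for Krt14, 0.039 for Krt7 and 0.11 for Krt13, and DESeq2 gave 0.0066 for Krt13. Without each library in turn, values ran from −1.95 to 1.17 for Calml3, −0.11 to 0.65 for Dmkn, −3.08 to 1.06 for Krtdap, −0.99 to 0.65 for Sbsn, −0.28 to 0.27 for Krt14, −1.15 to 0.093 for Krt15, −0.32 to 0.048 for Krt17, −0.12 to 0.67 for Krt5, −0.27 to 0.37 for Krt222, −0.0015 to 0.45 for Krt80, −0.19 to 0.35 for Krt18, −0.23 to 0.28 for Krt7, −0.023 to 0.28 for Krt10, −3.11 to 0.55 for Krt13, −3.08 to 1.14 for Krt4 and −0.64 to 0.45 for Krt6a. None of these values passed the threshold. The count of 15 members highest in the same 3 libraries was 15 with library totals and 14 with DESeq2 size factors, settings added after the data were seen.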

Other observations

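Some keratins under the count filter stood out in 1 library and were singled out after their values were seen. Krt77, a suprabasal keratin of sweat ducts, had 13 counts in the third Gpr115-KO library and 0 or 1 in the other five. Krt28, of the inner root sheath, had 9 counts in the second Gpr115-KO library and 0 to 4 elsewhere. Krt36, a hair keratin, had 0 counts in the first Gpr115-KO library and 5 to 13 in the others. At these depths 3 counts are the limit that a count of 0 allows.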
